A study of Mus musculus with 18 samples.

Results

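The 10 genes described here are Ifit1, Ifit2, Ifit3, Ifit3b, Mx1, Mx2, Rsad2, Isg15, Isg20 and Usp18, antiviral effectors and regulators that type I interferon induces. They were chosen by name among the 55450 genes of the deposited table as interferon effectors that were higher with the Col1a1 vector, so the difference between the Col1a1 vector and the empty vector is the value that selected them and is given here as a description without a test. All 10 passed the filter on low counts. RNA sequencing was done on mouse embryonic fibroblasts (MEF cells, a line from a commercial collection) that were transiently transfected with an empty pcDNA3 plasmid, with Col1a1-miR-29b or with CMV-miR-29b. Col1a1-miR-29b carries a human miR-29b-1 sequence behind a rat Col1a1 promoter, and CMV-miR-29b carries the same insert behind the cytomegalovirus promoter. Both miR-29b plasmids also hold EGFP and mRFP1, which the empty plasmid lacks. In 3 of the 6 groups TGF-β was added 6 h after transfection for a further 24 h. The groups, of 3 libraries each, were empty vector, empty vector + TGF-β, Col1a1-miR-29b, Col1a1-miR-29b + TGF-β, CMV-miR-29b and CMV-miR-29b + TGF-β. Plasmids were dosed by molar amount, so the larger Col1a1-miR-29b plasmid was given at a larger DNA mass than CMV-miR-29b. Every group was transfected, and no untransfected group was analysed here.

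Type I interferon binds a receptor whose signal is carried to the nucleus, where transcription factors bind the interferon-stimulated response element before their target genes. Fibroblasts both make this interferon and answer it, and they keep a low level of many of its target genes without infection. The IFIT proteins bind viral RNA and hold back its translation, the Mx proteins are dynamin-like GTPases that trap viral ribonucleoproteins, and Rsad2 (viperin) is an enzyme that makes a chain-terminating nucleotide. Isg15 is a ubiquitin-like modifier, Usp18 removes it from its targets and also dampens the interferon receptor, and Isg20 is an RNA exonuclease.

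Total counts ran from 65898017 to 80332633 per library with a median of 74155860, and the smallest count of any of the 10 genes in any library was 588, for Mx1. Mir29b-1, the check of the labels, had 0 counts in all 6 empty vector libraries, which allows up to 3 counts in each. It had 0 to 1 counts in the Col1a1-miR-29b libraries without TGF-β, 2 to 6 in those with TGF-β, and 110 to 309 in the 6 CMV-miR-29b libraries. The check therefore does not separate untreated Col1a1-miR-29b libraries from empty vector libraries. Of 12 fibroblast markers, Lum had 0 counts in every library and Thy1 had at most 8, while Fn1 and Col1a1 were the most abundant. The summed level of the 12 was 4189 to 4612 CPM (counts scaled to a common library total) with the empty vector and 3256 to 3631 CPM with the Col1a1 vector, and with TGF-β 6755 to 7732 and 5164 to 5283 CPM, and its part in the results below was not tested. Because these are bulk samples, more cells responding and more RNA per responding cell cannot be told apart.

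The promoter stretches of 7 of the 10 genes are shown because interferon acts on its target genes through such sequences, which 5 of them held in this stretch and Ifit2 and Isg20 did not. They come from RefSeq (GRCm38.p6), run from −200 to −51 relative to the gene start in the direction of transcription, and carry in capitals each core of the interferon-stimulated response element, GAAANNGAAA on either strand, in which matches may overlap. Mx1, Mx2 and Usp18 had no entry.
Ifit1, chr19:34640689-34640838, plus strand: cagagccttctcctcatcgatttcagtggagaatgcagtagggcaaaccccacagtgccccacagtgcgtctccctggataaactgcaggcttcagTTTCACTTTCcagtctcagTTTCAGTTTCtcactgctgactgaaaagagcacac
Ifit3, chr19:34583329-34583478, plus strand: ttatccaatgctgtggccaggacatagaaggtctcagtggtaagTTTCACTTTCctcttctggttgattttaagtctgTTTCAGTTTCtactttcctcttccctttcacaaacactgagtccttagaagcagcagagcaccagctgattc
Ifit3b, chr19:34607757-34607906, plus strand: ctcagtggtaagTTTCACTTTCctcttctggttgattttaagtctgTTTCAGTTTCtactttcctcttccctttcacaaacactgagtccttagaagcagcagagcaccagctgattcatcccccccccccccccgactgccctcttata
Rsad2, chr12:26456503-26456652, minus strand: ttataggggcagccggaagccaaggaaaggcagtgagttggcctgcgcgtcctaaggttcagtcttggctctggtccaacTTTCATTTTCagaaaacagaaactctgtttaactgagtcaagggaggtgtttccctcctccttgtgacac
Isg15, chr4:156200869-156201018, minus strand: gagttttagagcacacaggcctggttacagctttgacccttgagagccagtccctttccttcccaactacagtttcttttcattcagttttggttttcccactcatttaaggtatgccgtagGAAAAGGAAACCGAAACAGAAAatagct
Ifit2, chr19:34550494-34550643, plus strand: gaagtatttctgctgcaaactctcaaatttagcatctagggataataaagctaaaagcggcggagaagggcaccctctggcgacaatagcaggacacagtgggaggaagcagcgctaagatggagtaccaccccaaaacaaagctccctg
Isg20, chr7:78913224-78913373, plus strand: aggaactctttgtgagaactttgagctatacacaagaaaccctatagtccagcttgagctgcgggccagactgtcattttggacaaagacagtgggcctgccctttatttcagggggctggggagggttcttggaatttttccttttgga

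Over the whole windows of 250 bases before to 50 bases after the gene start, Ifit1 held 2 cores, Ifit3 and Ifit3b 2 each, Rsad2 1 and Isg15 3 that overlap one another. Neither window of Ifit2 and none of the 3 windows of Isg20 held the core. The core stood in 1131 of 32851 mouse promoter windows (3.44%). Counted by gene, with a match in any of its windows, it stood in 463 of 12362 tested genes with an entry (3.75%). By the same count it stood in 5 of the 7 members with an entry, and in 17 of 40 other interferon-stimulated genes with an entry (42.5%). The Ifit3 cores began at −156 and −122 from the gene start, and those of the near copy Ifit3b at −188 and −154. The core of the interferon gamma activated site, TTCNNNGAA, was in the first window of Ifit2 and of Isg20, in no window of the other 5 genes, and in 8.3% of all windows. These matches are letters in a window and not measured binding.

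**Figure D1:**
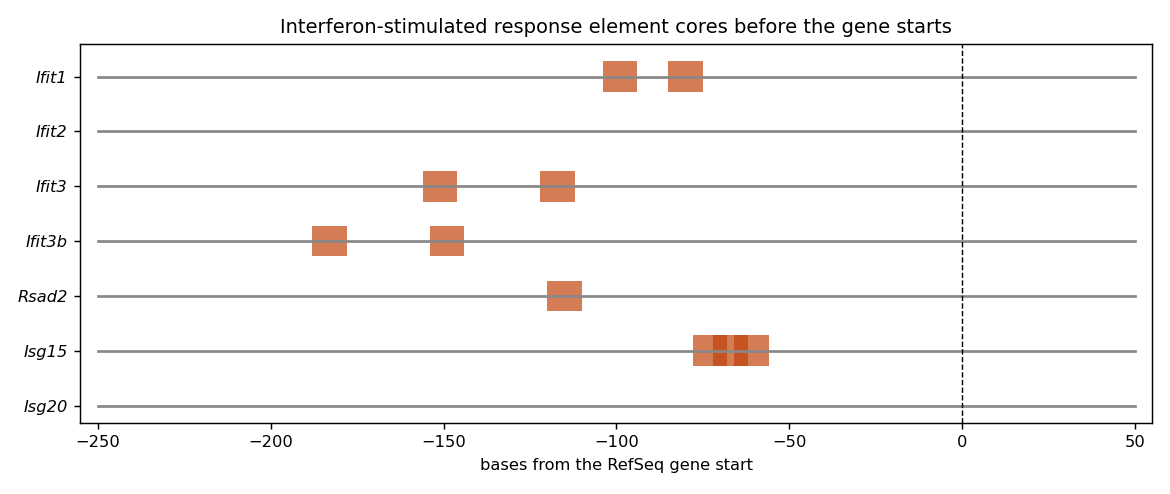
Each line is the RefSeq promoter window of a gene, in bases from the gene start (dashed line), and each box is a core of the interferon-stimulated response element. Ifit1, Ifit3 and Ifit3b each show 2 boxes, Rsad2 shows 1, Isg15 shows 3 that overlap, and Ifit2 and Isg20 show none.

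The coordinates below are as deposited, and for 9 of the 10 genes they equal those of GENCODE M21 on GRCm38, while Isg20 has the same start and another end there. The 4 IFIT genes lie in a cluster on the plus strand of chromosome 19, at chr19:34550694-34576419 (Ifit2), chr19:34583531-34588731 (Ifit3), chr19:34607970-34613401 (Ifit3b) and chr19:34640871-34650009 (Ifit1). Mx1 (chr16:97447035-97462907, minus strand) and Mx2 (chr16:97535308-97560900, plus strand) are neighbours too, and Mx2 is annotated as a polymorphic pseudogene. Rsad2 lies at chr12:26442746-26456452 on the minus strand and Isg15 at chr4:156199424-156200818 on the minus strand. Isg20 lies at chr7:78913424-78920307 and Usp18 at chr6:121245906-121270917, both on the plus strand. Usp18 overlaps the gene Gm44148 by its coordinates. The sources used here do not state whether counting used strand, so reads of that pair cannot be told apart. Ifit3 and Ifit3b are near copies. Of the stretches of 75 bases in the longest Ifit3 transcript, 41.1% were also in a transcript of Ifit3b, and 35.7% the other way round, so how their reads were split between them is uncertain. The same share was 5.19% for Ifit1, 2.2% for Mx1 and 3.04% for Mx2, each with its closest paralog.

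The miRNA that both plasmids encode has the mature sequence below (RefSeq, the mouse entry), shown with its seed, bases 2 to 8, in capitals.
mmu-miR-29b-3p: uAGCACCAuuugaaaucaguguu
Of the 10 genes, Rsad2 alone had the 7-base complement of this seed in its longest annotated 3' UTR, at 1 place. Of 14570 tested genes with such a UTR, 16% had at least 1.

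In cells with the empty vector and no TGF-β, the 10 genes were all well expressed, and their order per length was set by Isg15. On the FPKM scale, which divides by gene length, Isg15 stood at 267.6 ± 17.1 (SD, n = 3). Ifit1 (63.2 ± 1.51) and Ifit3 (60.3 ± 1.75) did not differ beyond their spread, and Usp18 followed at 46.9 ± 1.13. Isg20 (28.5 ± 3.31) and Ifit3b (27.4 ± 1.46) overlapped, as did Mx2 (21.7 ± 2.19) and Rsad2 (20.8 ± 0.54). Ifit2 (7.49 ± 0.53) and Mx1 (3.03 ± 0.55) were the lowest.

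With the Col1a1 vector, Mx1 stood at 2.02 times, Ifit1 at 1.68 times and Usp18 at 1.64 times the empty vector level, while Ifit2 and Isg20 were close to it. Values below are CPM after TMM scaling, and the libraries are named c, d and e after the sample titles. In both Col1a1-miR-29b groups the third library carries a column letter found in no title and is called unlettered. The Col1a1 and empty vector libraries did not overlap for 9 of the 10 genes without TGF-β (14.9% of all tested genes lay above in that way) and for 8 of 10 with TGF-β (14.8%). The median log2 fold change of the 10 genes was 0.50 without TGF-β and 0.46 with it, where all 21161 tested genes had 0.02 in both. These values chose the genes, and nothing is read from them beyond their size.

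Among the IFIT genes, Ifit1 had 185, 186 and 191 CPM in the empty vector libraries c, d and e, and 318, 296 and 327 CPM in the Col1a1-miR-29b libraries c, d and unlettered. The log2 fold change of Ifit1 was 0.74 (SE 0.10), and 0.75 (SE 0.10) with TGF-β. Ifit3 went from 122, 116 and 114 CPM to 184, 152 and 182 CPM, and Ifit3b from 65.1, 60.8 and 57.8 CPM to 100.8, 85.3 and 103 CPM. In these 3 genes every Col1a1-miR-29b library lay above every empty vector library, with and without TGF-β. Ifit2 was different. It had 32.8, 35.3 and 30.5 CPM with the empty vector and 37.3, 35.5 and 35.4 CPM with the Col1a1 vector, a log2 fold change of 0.13 (95% interval −0.15 to 0.42), and with TGF-β its groups overlapped (0.09, −0.20 to 0.37). The label of the gene group calls Ifit2 raised, and without TGF-β its groups were apart by the gap between 35.29 CPM, the highest empty vector library, and 35.37 CPM, the lowest Col1a1-miR-29b library.

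Mx1, a nuclear GTPase that acts on influenza-like viruses, showed the highest fold of the 10 genes. It had 15.5, 12.3 and 10.8 CPM with the empty vector and 29.0, 21.5 and 27.4 CPM with the Col1a1 vector, a log2 fold change of 1.01 (SE 0.19), and 1.005 (SE 0.19) with TGF-β. Mx2 had 95.4, 77.8 and 89.8 CPM against 123, 118.5 and 115.5 CPM, a log2 fold change of 0.44 (SE 0.11). Both Mx genes stood above the empty vector in all 3 Col1a1-miR-29b libraries, on very different levels.

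Usp18 and Isg15, the deconjugase and its modifier, had the smallest standard errors of the 10 genes in the fit over all libraries. Usp18 had 147, 143 and 149 CPM with the empty vector and 247, 232 and 239.8 CPM with the Col1a1 vector, a log2 fold change of 0.71 (SE 0.07). Isg15 had 241, 211 and 226 CPM against 308, 294 and 291 CPM, a log2 fold change of 0.40 (SE 0.07). Rsad2 had 99.1, 104 and 99.5 CPM against 133, 114 and 155 CPM, a log2 fold change of 0.41 (SE 0.16) and a wider spread among its Col1a1-miR-29b libraries. Isg20 was not higher. It had 67.6, 56.1 and 54.2 CPM with the empty vector and 62.4, 55.5 and 58.2 CPM with the Col1a1 vector, a log2 fold change of −0.01 (95% interval −0.30 to 0.27), and −0.04 (−0.33 to 0.24) with TGF-β. The label calls Isg20 raised as well, which these libraries do not show.

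**Figure D2:**
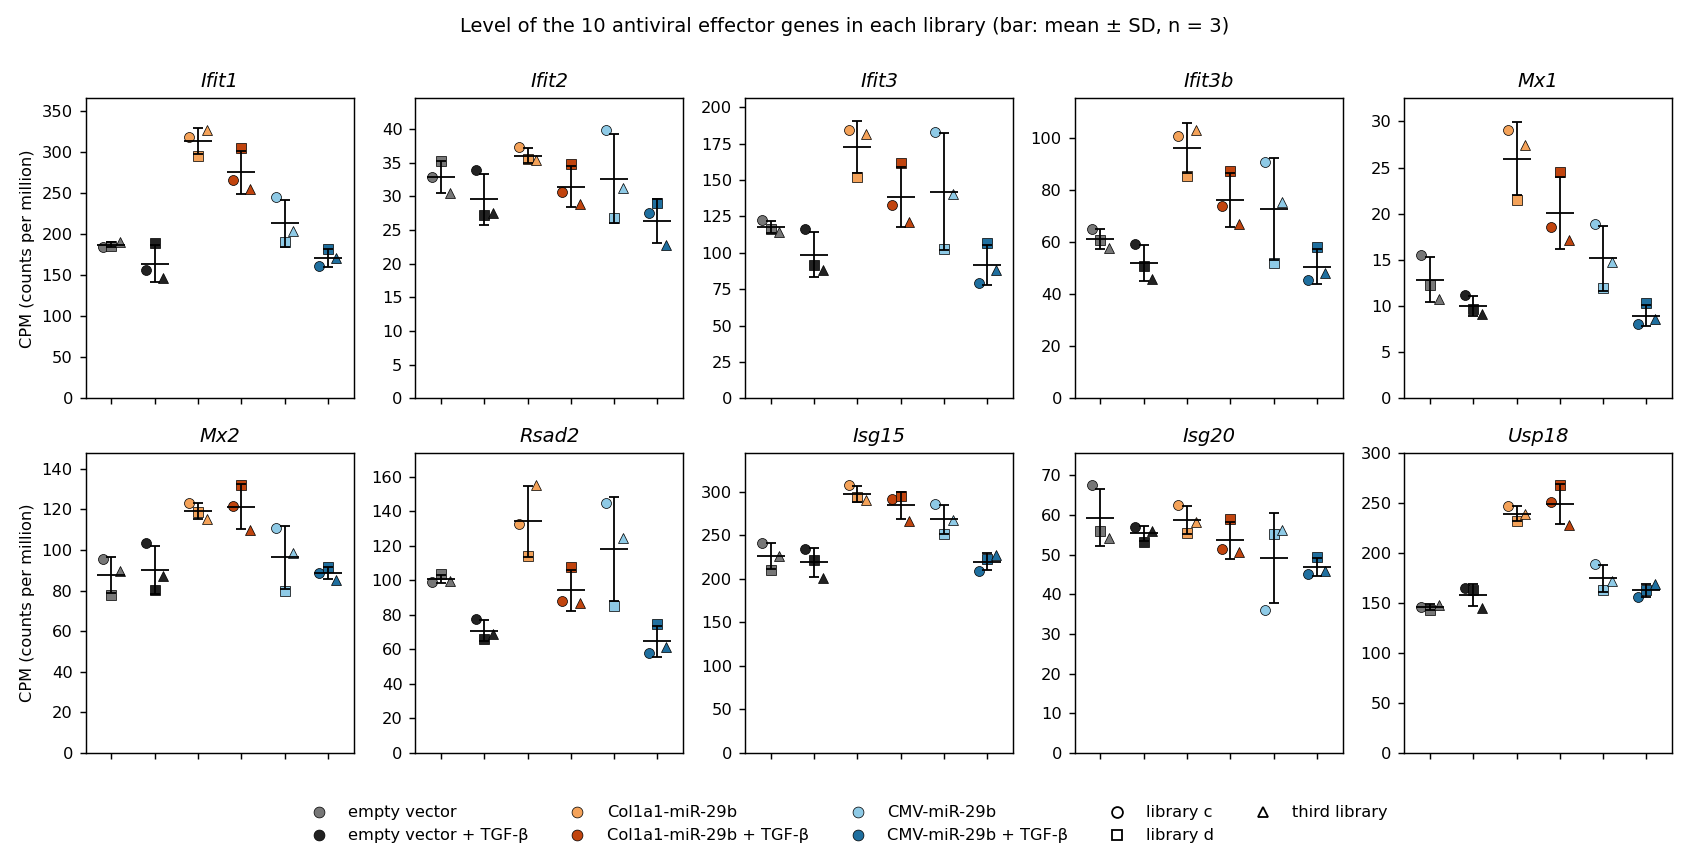
Each panel shows the level of 1 gene in CPM (linear axis from 0) in the 18 libraries, with the mean and SD of each group of 3. For Ifit1 and Usp18 the 6 Col1a1-miR-29b libraries (orange and red) lie above the other 12, while the Isg20 groups lie close together.

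The CMV vector carries the same insert as the Col1a1 vector and gave far more Mir29b-1 counts, so its comparison with the empty vector gives the levels of the 10 genes with the same insert behind another promoter. This comparison uses the empty vector libraries again and is not independent of the one above. Without TGF-β, 0 of the 10 genes passed an adjusted p of 0.05 in edgeR's quasi-likelihood test, which called 0.00473% of all tested genes. Of the 10, 2 (Isg15 and Usp18) had an unadjusted p under 0.05, and DESeq2 and limma on FPKM called 0 of the 10 as well. The 10 log2 fold changes ran from −0.27 to 0.27 with a median of 0.24, and 8 of 10 were above 0. Isg15 was at 286, 252 and 267 CPM in the CMV-miR-29b libraries c, d and e (log2 fold change 0.25, 95% interval 0.11 to 0.39, edgeR adjusted p = 0.64). Usp18 was at 189, 163 and 172 CPM (0.26, 0.12 to 0.40, edgeR adjusted p = 0.63). Together with Ifit1 they were the 3 of 10 genes whose CMV-miR-29b libraries all lay above the empty vector libraries, as for 5.42% of all genes. Library c was the highest CMV-miR-29b library for 9 of the 10 genes, and without it the median log2 fold change fell from 0.24 to 0.04.

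With TGF-β in both arms, 0 of the 10 genes passed in CMV-miR-29b against empty vector cells (0.00945% of all genes), 0 had an unadjusted p under 0.05, and DESeq2 and limma called 0. The 10 log2 fold changes ran from −0.24 to 0.06 with a median of −0.08. Their 95% intervals lay between −0.56 and 0.31, so differences of that size are within the error of these libraries.

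Set side by side, the Col1a1-miR-29b cells were above the CMV-miR-29b cells for 10 of the 10 genes, with median log2 differences of 0.29 without TGF-β and 0.57 with it. The libraries of the 2 vectors did not overlap for 5 of 10 genes without TGF-β (11.1% of all genes lay above in that way) and for 9 of 10 with it (11.7%). Without TGF-β the median was 0.46 when CMV-miR-29b library c was left out and 0.19 when library d was. Isg20 went from 0.26 to 0.08 without library c, and Rsad2 from 0.18 to −0.01 without library d. This comparison holds the libraries that chose the genes and is a description. With TGF-β, Mx1 had 18.6, 24.5 and 17.2 CPM with the Col1a1 vector and 8.01, 10.3 and 8.61 CPM with the CMV vector, the widest of these differences (log2 1.16, SE 0.19).

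TGF-β went with lower levels of most of the 10 genes, and the calls were made in CMV-miR-29b cells and in the mean over the 3 vectors. In CMV-miR-29b cells, 10 of 10 genes had a log2 fold change below 0 (median −0.31, all genes −0.0025), and 4 of 10 fell at an adjusted p under 0.05 in edgeR, where 1.87% of all genes fell and 3.08% rose. All 3 TGF-β libraries lay below all 3 untreated ones for 4 of the 10 genes (Ifit1, Mx1, Rsad2 and Isg15), as for 9.89% of all genes.

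Rsad2 had 144.5, 85.4 and 125 CPM in the CMV-miR-29b libraries c, d and e, and 57.7, 74.7 and 61.4 CPM in CMV-miR-29b + TGF-β. Its log2 fold change was −0.87 (SE 0.16, edgeR adjusted p = 0.0036). Mx1 had 18.9, 11.9 and 14.8 CPM without and 8.01, 10.3 and 8.61 CPM with TGF-β, a log2 fold change of −0.76 (SE 0.19, edgeR adjusted p = 0.027). Isg15 fell less in size, from 286, 252 and 267 CPM to 209, 222.5 and 228 CPM (−0.29, SE 0.07, edgeR adjusted p = 0.016). For Rsad2, Mx1 and Isg15 the groups did not overlap, although the untreated library d lay close to the treated ones for Rsad2 and Mx1. Ifit3 went from 183, 103 and 140.2 CPM to 79.5, 106 and 88.1 CPM, so its groups overlapped, and its call was at the threshold (−0.64, SE 0.18, edgeR adjusted p = 0.0498). The other 6 genes did not pass, among them Ifit3b (−0.52, 95% interval −0.88 to −0.17) and Ifit1 (−0.31, −0.53 to −0.10).

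Of these 4 calls, that of Rsad2 held with each library left out, and those of Ifit3, Mx1 and Isg15 did not. Leaving out CMV-miR-29b library c left 1 of 10 called, leaving out library e left 2, leaving out the CMV-miR-29b + TGF-β library c left 1, and leaving out its library e left 2. Leaving out CMV-miR-29b library d gave 5. DESeq2 called 6 of 10 lower (3.15% of all genes it tested) and limma on log2(FPKM + 1) called 2 (1.71%). A fit on these 2 groups alone called 0 (Rsad2 adjusted p = 0.076 in edgeR). The shares of all genes called are not given here for that fit or for those with a library left out. Whether calls were lost more among the 10 genes than among all genes was not tested.

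In empty vector cells, 8 of 10 log2 fold changes with TGF-β were below 0 (median −0.17, all genes 0.0023), and 0 of 10 passed in edgeR, where 2.01% of all genes fell and 3.88% rose. An unadjusted p under 0.05 was found for 1 gene, DESeq2 called 1 lower (3.98% of all genes it tested) and limma 0. That gene was Rsad2, with 99.1, 104 and 99.5 CPM without and 77.5, 65.9 and 69.1 CPM with TGF-β. Its 3 treated libraries all lay below the untreated ones, as for 9.68% of all genes, and it was the only member for which they did. Its log2 fold change was −0.51 (SE 0.16, edgeR adjusted p = 0.084, DESeq2 adjusted p = 0.020), and an edgeR fit on these 2 groups alone called it (adjusted p = 0.011). Mx1 had −0.36 (95% interval −0.76 to 0.04) and Ifit1 −0.19 (−0.40 to 0.02). Isg15 (−0.04, −0.18 to 0.10) and Usp18 (0.11, −0.03 to 0.25) had narrow intervals around 0.

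In Col1a1-miR-29b cells 8 of 10 log2 fold changes were likewise below 0 (median −0.19, all genes −0.0056). The rule that selected the genes does not say whether their higher level was with or without TGF-β, and both arms here hold the Col1a1 vector. In edgeR 0 of 10 genes passed, where 1.32% of all genes fell and 3% rose. Rsad2 again had the only unadjusted p under 0.05, DESeq2 called it lower (adjusted p = 0.027), as it did 2.44% of all genes it tested, and limma called 0. It had 133, 114 and 155 CPM in Col1a1-miR-29b libraries c, d and unlettered and 88.1, 108 and 86.6 CPM with TGF-β, a log2 fold change of −0.51 (SE 0.16, edgeR adjusted p = 0.10). Rsad2 and Ifit2 were the 2 of 10 genes whose treated libraries all lay below the untreated ones, as did 10.2% of all genes.

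Averaged over the 3 vectors, 6 of 10 genes fell with TGF-β in edgeR and 0 rose, where 5.86% of all genes fell and 7.83% rose. This comparison was added after the data were seen. It includes the response in Col1a1-miR-29b cells, whose libraries selected the genes, so it is not independent of that choice. The median was −0.22 (all genes −0.0054). Rsad2 fell by 0.63 on the log2 scale (SE 0.09, edgeR adjusted p = 0.000167) and Mx1 by 0.50 (SE 0.11, edgeR adjusted p = 0.0048). Ifit3 (−0.40), Ifit3b (−0.37), Ifit1 (−0.23) and Isg15 (−0.13) also passed. Ifit2 (−0.22, edgeR adjusted p = 0.077), Isg20 (−0.10), Mx2 (−0.02, 95% interval −0.16 to 0.12) and Usp18 (0.02, −0.06 to 0.10) did not. Rsad2 and Mx1 passed under every alternative tried for this mean, and the calls of the other 4 did not hold under all of them. Leaving out both unlettered libraries left 2 of 10 called, and the share of all genes called in that fit is not given here. Isg15 did not pass (edgeR adjusted p from 0.051 to 0.065) when 1 of 6 libraries was left out, namely empty vector c or e, Col1a1-miR-29b c, Col1a1-miR-29b + TGF-β unlettered, CMV-miR-29b c or CMV-miR-29b + TGF-β c. Ifit2 passed under DESeq2 (adjusted p = 0.038) and with total counts as the scaling (edgeR adjusted p = 0.040). It also passed without empty vector + TGF-β c or CMV-miR-29b d, and Isg20 passed without CMV-miR-29b c. DESeq2 called 7 of 10 lower, among 3375 genes it called in either direction. Limma on log2(FPKM + 1) called 5, among 2520 in either direction. The share of all genes called lower is not given here for these 2 tools, so their counts have no background to be read against.

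Whether the response to TGF-β differed between vectors was tested as an interaction. In Col1a1-miR-29b less empty vector cells 0 of 10 genes passed, with 0% of all genes called, 0 of the 10 at an unadjusted p under 0.05 and 0 by DESeq2 or limma. This contrast is also the difference between the 2 Col1a1 comparisons that selected the genes, so nothing is read from it about them. The 10 differences had a median of −0.03 and 95% intervals between −0.61 and 0.55. For CMV-miR-29b less empty vector, again 0 of 10 passed with 0% of all genes called, 2 had an unadjusted p under 0.05, DESeq2 and limma called 0 of the 10, and the median was −0.23 with intervals between −0.97 and 0.43. The calls made in CMV-miR-29b cells alone are therefore not shown to be a different response.

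**Figure D3:**
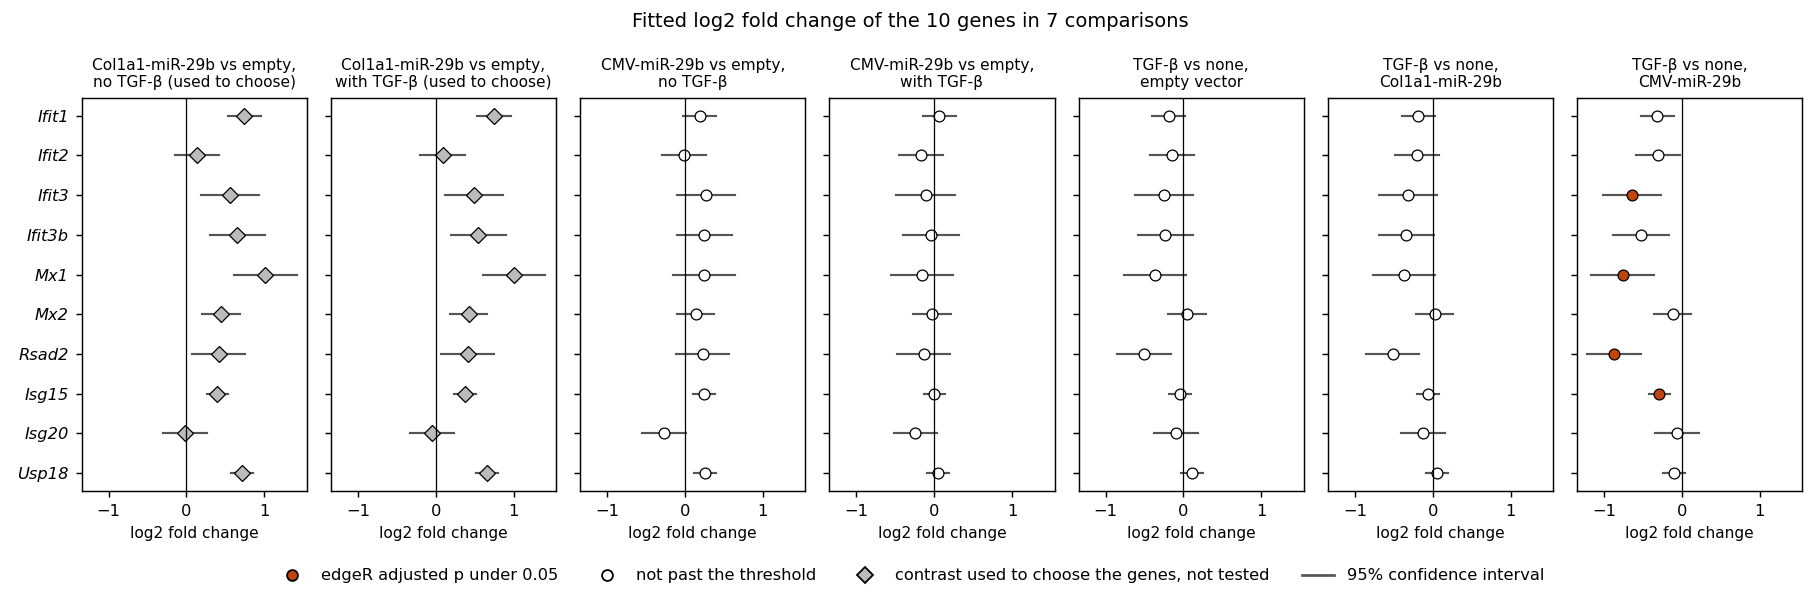
Points are log2 fold changes from the edgeR fit with 95% intervals for the 10 genes in 7 comparisons, with filled circles for an adjusted p under 0.05 and grey diamonds for the 2 comparisons that selected the genes. The 4 filled circles are Ifit3, Mx1, Rsad2 and Isg15 with TGF-β in CMV-miR-29b cells, and the intervals of the diamonds for Ifit2 and Isg20 cross 0.

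Of the 10 genes, 9 moved together from library to library inside their own group, which the rule did not use. Over the 18 libraries, deviations from the group mean of log2 CPM correlated with the mean deviation of the other 9 genes at 0.97 for Ifit3b and Ifit3, 0.92 for Mx1, 0.85 for Rsad2, 0.78 for Usp18 and Mx2, 0.76 for Ifit2, 0.73 for Isg15 and 0.62 for Ifit1, and at −0.21 for Isg20. These values are a description over libraries of 6 groups with shared scaling, and Ifit3 and Ifit3b also share sequence. Ifit2, which differed little between vectors, thus varied with the other 9 genes within groups, and Isg20 did not.

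The largest such deviations were in the CMV-miR-29b group, where library c had a mean deviation of 0.19 and library d of −0.23. In Col1a1-miR-29b + TGF-β, library d was the highest of its group for 10 of 10 genes (mean 0.17) and the unlettered library the lowest for 10 of 10 (mean −0.13). The 49 other interferon-stimulated genes deviated the same way in these 4 libraries, by 0.09, −0.11, 0.07 and −0.05. They lay on the other side from the 10 genes in empty vector e (0.005 against −0.05) and empty vector + TGF-β d (0.02 against −0.03). The same held in CMV-miR-29b + TGF-β e (0.007 against −0.04). The mean over all tested genes lay between −0.0107 and 0.0073 in every library.

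**Figure D4:**
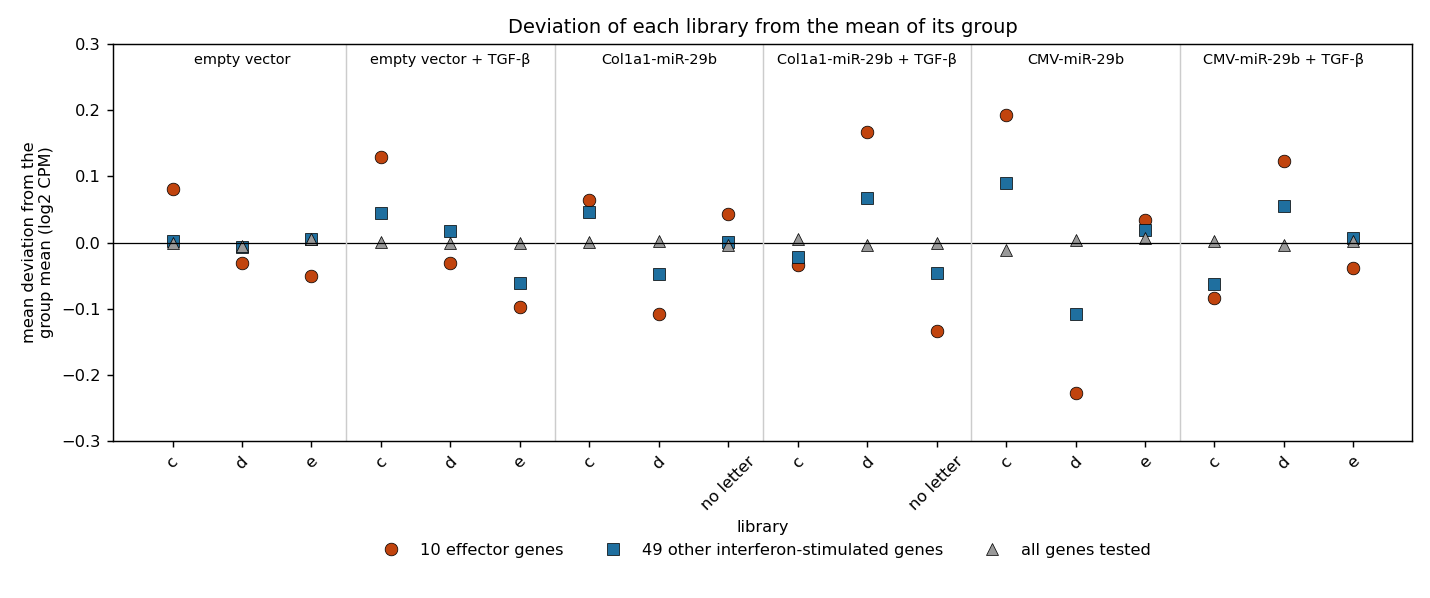
Each column is a library, placed by its mean deviation from its group's mean in log2 CPM, for the 10 genes (circles), 49 other interferon-stimulated genes (squares) and all tested genes (triangles). The circles spread from −0.23 to 0.19 and the squares lie on the same side in the 4 libraries with the widest circles, while the triangles stay at 0.

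The rest of the pathway was described with lists drawn up when earlier results of these data were known. Of 21 interferon ligand genes, 14 had 0 counts in all 18 libraries. The highest ligand count was 120, for Ifnz, and Ifnb1, named after its values were seen as the interferon that fibroblasts typically make first, had 0 to 18 counts per library. In edgeR 0 of the 3 ligands tested passed in any comparison, 0 passed in DESeq2, and 1 had an unadjusted p under 0.05 with the Col1a1 vector without TGF-β. The 12 receptor and signal transducer genes all passed the filter on low counts. Of these 12 only Stat2 was called higher with the Col1a1 vector (log2 fold change 0.28, SE 0.08, edgeR adjusted p = 0.041 without and 0.024 with TGF-β), and it fell with TGF-β in CMV-miR-29b cells (−0.41, SE 0.08, edgeR adjusted p = 0.0040).

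Of 49 other interferon-stimulated genes, 27 were called higher and 0 lower with the Col1a1 vector without TGF-β, where 2.57% of all tested genes were called higher, and 24 higher and 0 lower with TGF-β, where the share was 5.31%. Their median log2 fold changes were 0.36 and 0.32. Cxcl10, a chemokine, was among the larger (0.73, SE 0.05, edgeR adjusted p = 4.7e-06), with the interferon-induced GTPases Iigp1 (1.09, SE 0.19) and Igtp (0.82, SE 0.07). With the CMV vector 0 of the 49 passed in edgeR without and with TGF-β, 9 and 3 had an unadjusted p under 0.05, DESeq2 called 0 and 2, and the medians were 0.12 and 0.02. With TGF-β, 8 of the 49 fell in empty vector cells (2.01% of all genes), 15 with the CMV vector (1.87%) and 8 with the Col1a1 vector (1.32%), and 0 rose in each. Gbp2 fell by 0.63 in empty vector cells (SE 0.06, edgeR adjusted p = 5.9e-06) and Oas2 by 0.50 (SE 0.10, edgeR adjusted p = 0.0048).

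Close partners of the 10 genes showed both patterns. The paralog Ifit1bl2 was higher with the Col1a1 vector (0.70, SE 0.14, edgeR adjusted p = 0.012), and it shares 4.07% of its 75-base stretches with Ifit1. Uba7, the enzyme that activates Isg15, was higher as well (0.35, SE 0.06, edgeR adjusted p = 0.0059) and was the only one of 5 genes of Isg15 conjugation to be called there. Uba7 fell with TGF-β in empty vector cells (−0.29, SE 0.06, edgeR adjusted p = 0.0086), as did Herc6, the mouse ligase for Isg15 (−0.25, SE 0.05, edgeR adjusted p = 0.0050), while Isg15 itself had −0.04. Of 19 tested nucleic acid sensors and adaptors, 4 were higher with the Col1a1 vector without TGF-β (2.57% of all genes) and 4 with it (5.31%), and 0 were lower, led by the sensor Dhx58 (0.43, SE 0.10) and the transcription factor Irf7 (0.41, SE 0.06) without TGF-β. Of 11 inhibitors of the response, 3 were higher (Nlrc3, Trim30a and Socs3) and 1 lower (Ptpn2) without TGF-β, where 2.57% of all genes were higher and 3.7% lower. NF-κB targets were mixed, with 1 of 18 higher and 1 lower without TGF-β, and 4 higher and 2 lower with it, where 5.31% of all genes were higher and 7.63% lower.

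Macrophage and leukocyte markers moved little, and their part in the result was not tested. The summed level of the 10 markers was 23.0 to 25.4 CPM in the empty vector libraries and 25.5 to 26.8 CPM in the Col1a1-miR-29b libraries, without overlap. With TGF-β it was 23.2 to 25.0 and 24.1 to 28.1 CPM. Tyrobp had 0 counts in every library, Adgre1 at most 4 and Ptprc at most 25, and 0 of 7 tested markers passed in edgeR or DESeq2 in either comparison of the Col1a1 vector with the empty vector (1 and 0 with an unadjusted p under 0.05). Of 8 plasmacytoid dendritic cell markers, Siglech had at most 4 counts and Klra17 had 0, and the list's summed level came mainly from Bst2, which is itself interferon-stimulated and was higher with the Col1a1 vector (0.36, SE 0.05, edgeR adjusted p = 0.0023). The summed levels over all libraries were 1.03 to 3.03 CPM for 7 endothelial, 39.4 to 84.2 CPM for 7 epithelial and 13.8 to 21.9 CPM for 6 muscle cell markers.

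Outside the 10 genes, the log2 CPM profiles most like their mean over the 18 libraries were those of Gbp3 (r = 0.97), Oas1g (0.97), Gm4951 (0.96), Cmpk2 (0.95), Tor3a (0.94), Oas1a (0.94), Tdrd7, Sp100, Phf11d (each 0.93) and Iigp1 (0.93). These r values include the differences between vectors that selected the members. Of 8 tested neighbours of the 10 genes, 0 passed in edgeR with the Col1a1 vector against the empty vector (1 and 4 with an unadjusted p under 0.05 without and with TGF-β). DESeq2 called 1 and 2 of them, among 2362 and 3488 genes it called in either direction. The median log2 fold change of these neighbours was 0.10 without TGF-β and 0.76 with it. Cmpk2, a mitochondrial nucleotide kinase, is the neighbour of Rsad2 and fell with TGF-β in the mean over the 3 vectors (−0.32, SE 0.10, edgeR adjusted p = 0.034).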

How the data were processed

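Poly(A) RNA of 18 MEF libraries was sequenced as paired ends. The submitters' processing notes name FastQC, cutadapt, HISAT2, StringTie and mm9, while the deposited gene coordinates are those of GRCm38 (52506 of 55450 genes identical to GENCODE M21). How reads were assigned to genes, and whether strand was used, is not given in the sources used here. The authors deposited a whole-number count and an FPKM value per gene and library, and FPKM divides by gene length and library total. The counts of each group come from 3 repeated experiments by the study's methods. The count columns of the libraries called unlettered match no sample title and were used by the group that their names show. The FPKM of these libraries was not used, so 2 columns of per-sample values stayed unused and FPKM tests had 16 libraries.

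Counts were fitted in R 4.3.3 with edgeR 4.0.16 (filterByExpr by group, 21161 genes; TMM; quasi-likelihood test; 1 mean per group in a fit of all 18 libraries). P values were adjusted by Benjamini-Hochberg across the genes tested, with a threshold of 0.05. Alternatives were DESeq2 1.42.0, limma 3.58.1 on log2(FPKM + 1) and log2(FPKM + 0.1), other scalings and filters, counts divided by 4, a replicate block, groups compared alone and each library left out. The fit with the replicate block left out both unlettered libraries. Plotted and compared CPM values used the TMM-scaled totals. Intervals are at the 95% level and cover the spread between these libraries. The correlation of deviations between libraries of different groups with the same letter averaged 0.0098 over 36 pairs, so letters were not treated as pairs.

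The members and all gene lists were chosen with earlier results of these data known. All 10 members were named; of each other list, up to 4 genes past the threshold with the largest change and a mean of at least 1 CPM, or up to 2 of the most abundant where none passed; and the 10 genes whose profile was most like the members'.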

Additional observations from a re-analysis of the deposited data

How the results depend on the processing

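Of 2188 values recomputed over 31 alternative settings, 2110 were classed as unchanged. Such a value kept its direction and its side of the threshold, or moved by less than the spread between libraries. A count of genes called was also classed as unchanged after a small relative change, up to one such as from 4 to 6. For the edgeR fits with fewer libraries, the shares of all genes called are not given here. The number of the 10 genes called lower with TGF-β changed under several settings, among them the following. In empty vector cells it went from 0 to 1 under DESeq2 and to 1 with the groups compared alone, and in Col1a1-miR-29b cells from 0 to 1 under DESeq2. In CMV-miR-29b cells it went from 4 to 6 under DESeq2, to 2 under limma on log2(FPKM + 1) and to 3 on log2(FPKM + 0.1). It went to 0 with the groups compared alone and ranged from 1 to 5 with 1 library left out. Under a replicate block, fitted without both unlettered libraries, it went to 2. For the mean over the 3 vectors it went from 6 to 7 under DESeq2, to 5 under limma and to 2 under a replicate block. It ranged from 5 to 7 with 1 library left out. Without both unlettered libraries and with no block it was also 2, an alternative chosen after seeing the data. For this mean the block therefore cannot be told apart from leaving out those libraries. The cause of these changes was not tested, and some of these settings also held fewer libraries. The letters do not pair the libraries (the mean correlation of deviations was 0.0098 for 36 pairs sharing a letter against −0.0051 for 70 other pairs, across 11216 genes), and the replicate block changed no other count of members called.

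The following values, none of them called, changed sign. With total counts as the scaling, the TGF-β difference of Mx2 with the Col1a1 vector was at −0.0036 on the log2 scale. With 1 library left out, Mx2 ranged from −0.0702 to 0.1104 in empty vector cells, from −0.04 to 0.0893 in Col1a1-miR-29b cells and from −0.0626 to 0.0161 in the mean over the vectors. Isg15 ranged from −0.1004 to 0.0019 in empty vector cells and Isg20 from −0.2488 to 0.0309 in CMV-miR-29b cells. In the untested comparison of the Col1a1 with the CMV vector without TGF-β, Rsad2 ranged from −0.0112 to 0.3525. Isg20 with the Col1a1 vector against the empty vector also changed sign, reaching 0.0812 without TGF-β and 0.0296 with it, as did the median of the 10 genes for CMV-miR-29b against empty vector with TGF-β (0.0228 at most) and for the Col1a1 interaction (0.0495 at most). The smallest count of the 10 genes was 588, and each group held 3 libraries. What set the width of the intervals was not tested.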
